A study of Mus musculus with 6 samples.

Results

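The transcripts followed here were those of 5 milk protein genes (*Csn1s1*, *Csn2*, *Csn3*, *Wap* and *Lalba*), 4 keratin genes (*Krt5*, *Krt8*, *Krt14* and *Krt18*) and *Epcam*, read as traces of mammary epithelial RNA in sorted macrophages. They were chosen by gene symbol, and all 10 were found among the 24061 symbols of the count table. Bulk RNA-seq had been performed on CD45+CD11b+F4/80+ cells of the mouse mammary gland, split by flow cytometry into Lyve-1+ and Lyve-1- macrophages. There were 3 libraries per subset. The question for these genes was how much epithelial transcript each macrophage library held and whether that amount differed between the subsets. All libraries came from FVB/N mice with no treatment named, and each was a pool of the number 4 glands of 4 mice, taken after removal of the inguinal lymph node. Replicate 1 of each subset was collected at 6 weeks of age, and replicates 2 and 3 were collected at 10 weeks. The glands had been minced and digested with collagenase before the sort. The gate required CD45, the pan-leukocyte antigen, and no marker against epithelial cells is named.

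The mammary duct is built of an inner luminal layer and an outer basal, or myoepithelial, layer. Luminal cells carry the keratins Krt8 and Krt18 and the adhesion molecule Epcam, while basal cells carry Krt5 and Krt14. Under prolactin, luminal cells turn into secretory cells that make caseins and whey proteins, and low amounts of these messages are known in the virgin gland as well.

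The members are scattered over 4 chromosomes (all positions from GENCODE M21, build GRCm38/mm10). *Csn1s1* (chr5:87666208-87682578, plus strand), *Csn2* (chr5:87692624-87699630, minus strand) and *Csn3* (chr5:87925579-87932665, plus strand) lie in the casein cluster, in which 5 casein genes occupy 266458 bases. *Lalba* (chr15:98480400-98482721, minus strand), *Krt5* (chr15:101707070-101712898, minus strand), *Krt8* (chr15:101996698-102004482, minus strand) and *Krt18* (chr15:102028180-102032027, plus strand) share chromosome 15. *Wap* (chr11:6635482-6638637, minus strand) and *Krt14* (chr11:100203162-100207548, minus strand) are on chromosome 11, and *Epcam* (chr17:87635979-87651129, plus strand) is on chromosome 17. All 10 are protein-coding genes, and reads were counted per gene. *Krt5* shares 129 exonic bases with a gene on the opposite strand, *Gm44323*, and *Krt8* shares 101 with *Gm36026*. The annotation also lists a processed pseudogene of *Krt8*, *Krt8-ps*. Whether counting used the strand is not given in the sources used here, so the counts of *Krt5* and *Krt8* may include reads of those neighbours.

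Prolactin acts on milk genes through the transcription factor STAT5, which binds the palindromic motif TTCNNNGAA. The 250 bases before the transcription start are shown for the pair of most abundant milk genes, for a milk gene close to its detection limit, and for the most abundant keratin, with matches to that motif in capitals. They are from RefSeq on GRCm38.p6 and read 5′ to 3′ along the gene's own strand. The RefSeq starts used here differ in part from the GENCODE positions above. By those positions the *Csn2* window lies mostly, and the *Krt18* window partly, inside the gene.
Csn1s1 (chr5:87665958-87666207, plus strand): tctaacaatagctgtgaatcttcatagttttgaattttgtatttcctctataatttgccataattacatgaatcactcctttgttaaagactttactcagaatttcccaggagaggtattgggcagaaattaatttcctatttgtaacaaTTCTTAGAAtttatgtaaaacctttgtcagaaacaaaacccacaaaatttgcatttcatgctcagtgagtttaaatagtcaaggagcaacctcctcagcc
Csn2 (chr5:87699426-87699675, minus strand): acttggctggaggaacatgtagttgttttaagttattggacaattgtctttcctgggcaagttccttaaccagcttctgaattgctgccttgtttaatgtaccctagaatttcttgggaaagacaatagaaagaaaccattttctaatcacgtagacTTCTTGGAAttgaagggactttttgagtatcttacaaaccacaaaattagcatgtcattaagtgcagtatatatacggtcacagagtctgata
Wap (chr11:6638650-6638899, minus strand): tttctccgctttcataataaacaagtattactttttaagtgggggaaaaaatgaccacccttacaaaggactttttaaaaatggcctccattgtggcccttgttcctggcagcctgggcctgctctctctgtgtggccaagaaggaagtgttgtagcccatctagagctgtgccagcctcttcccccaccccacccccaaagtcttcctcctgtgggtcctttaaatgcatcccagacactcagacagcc
Krt18 (chr15:102027966-102028215, plus strand): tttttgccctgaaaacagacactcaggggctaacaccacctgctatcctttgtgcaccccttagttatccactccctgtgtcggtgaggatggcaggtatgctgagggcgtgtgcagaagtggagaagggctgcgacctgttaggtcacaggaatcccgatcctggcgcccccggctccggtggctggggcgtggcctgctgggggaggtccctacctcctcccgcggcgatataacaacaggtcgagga
The motif occurred 1 time each in *Csn1s1*, starting 100 bases before the transcription start, and in *Csn2*, starting 93 bases before it. It was not found in these windows of *Wap* or *Krt18*. Because the motif reads the same on both strands, 1 search covered both. Of the 10 members, 9 had a promoter entry, and *Lalba*, *Krt5*, *Krt8*, *Krt14* and *Epcam* held no match either. By the GENCODE positions, the *Krt14* window lies wholly, and those of *Lalba* and *Krt8* partly, inside the gene. Among all 32851 promoter windows of this length, 7.02% held at least 1 match. A match describes the letters of the window only.

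The libraries held between 6478007 and 21406839 counts. The subset labels were checked against *Lyve1*, which had 17 to 75 counts in the Lyve-1- libraries and 4735 to 30871 in the Lyve-1+ libraries (log2 fold change 7.93, edgeR adjusted p = 0.0254). Some libraries stood apart in genes that neither macrophages nor ducts are known to use: of 1110 olfactory receptor genes, Lyve-1- replicate 3 detected 651, Lyve-1+ replicate 1 detected 370 and Lyve-1+ replicate 2 detected 134. The other libraries detected 4, 34 and 5. Levels below are in CPM, counts relative to the library size after scaling by the trimmed mean of M values (TMM). A count of 0 allows about 3 counts at most, which correspond to 0.140 to 0.463 CPM of the total counts before that scaling.

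Epithelial transcripts were present in all 6 libraries. *Csn1s1*, *Csn2*, *Csn3*, *Krt5*, *Krt8*, *Krt14*, *Krt18* and *Epcam* had at least 1 count in every library, *Lalba* had counts in 4 libraries and *Wap* in 3. Together the 10 genes took 0.0580%, 0.00608% and 0.0244% of the counts in Lyve-1- replicates 1, 2 and 3, and 0.0119%, 0.0147% and 0.00813% in Lyve-1+ replicates 1, 2 and 3. The highest and lowest shares were thus both in Lyve-1- libraries, and the Lyve-1+ libraries lay between them.

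To compare genes with each other, the mean level over the 6 libraries was divided by exonic length. *Csn2* had the highest level, 39.7 CPM per kb, followed by *Krt18* at 32.9 and *Csn1s1* at 20.9. *Krt8* at 11.95, *Lalba* at 9.14, *Epcam* at 8.32 and *Csn3* at 8.30 CPM per kb formed the middle of the order, and *Krt14* at 1.99, *Wap* at 1.28 and *Krt5* at 1.27 formed its end. On the same scale the median of the 13264 tested genes with a known length was 6.06, and *Csf1r*, the receptor of the macrophage growth factor, stood at 217. *Csn2* thus lay above 89.2% of those genes and *Krt18* above 86.9%, whereas *Krt5* lay above 16.7%. Neighbours in this order overlapped over the libraries, and no 2 of them are told apart beyond that spread.

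*Csn2* encodes beta-casein, a main protein of mouse milk. Its level was 182 CPM (2169 counts), 15.1 CPM (170 counts) and 46.8 CPM (321 counts) in Lyve-1- replicates 1, 2 and 3. It was 28.9 CPM (379 counts), 33.7 CPM (703 counts) and 14.2 CPM (113 counts) in Lyve-1+ replicates 1, 2 and 3. The 6-week Lyve-1- library was the highest, and the other 5 libraries overlapped. The means were 81.4 ± 88.8 CPM (SD, n = 3) in Lyve-1- and 25.6 ± 10.1 CPM (SD, n = 3) in Lyve-1+ macrophages. By edgeR's quasi-likelihood test the log2 fold change, Lyve-1+ over Lyve-1-, was -1.67 (SE 0.75, unadjusted p = 0.0484, adjusted p = 0.641). Leaving out Lyve-1- replicate 1 brought it to -0.27.

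*Csn1s1* encodes alpha-S1-casein, a calcium-binding casein of the milk micelle. Its level was 93.3, 5.33 and 24.1 CPM in Lyve-1- replicates 1, 2 and 3 (1110, 60 and 165 counts). In Lyve-1+ replicates 1, 2 and 3 it was 13.6, 24.4 and 16.8 CPM (179, 510 and 133 counts). Lyve-1- libraries were again both the highest and the lowest. The means of 40.9 ± 46.3 and 18.3 ± 5.56 CPM (SD, n = 3 each) gave a log2 fold change of -1.16 (SE 0.79, edgeR adjusted p = 0.950). The sign turned to 0.32 without Lyve-1- replicate 1.

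*Csn3* encodes kappa-casein, which coats and stabilizes the casein micelle. It was at 49.99, 0.178 and 20.6 CPM in Lyve-1- replicates 1, 2 and 3 (595, 2 and 141 counts). In the Lyve-1+ replicates it was at 14.3, 22.9 and 19.7 CPM (188, 478 and 156 counts). Lyve-1- replicate 2 was below its floor of 0.267 CPM for *Csn3*, although the same library had 170 counts of *Csn2*. The log2 fold change was -0.31 (SE 1.14, edgeR adjusted p = 0.9999), and it was 0.89 without Lyve-1- replicate 1.

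The whey protein genes were uneven. *Lalba* encodes alpha-lactalbumin, the regulatory subunit of lactose synthase. It had 413, 0 and 3 counts in Lyve-1- replicates 1, 2 and 3 (34.7, 0 and 0.437 CPM) and 69, 39 and 0 counts in Lyve-1+ replicates 1, 2 and 3 (5.26, 1.87 and 0 CPM). Within each subset the 6-week library was the highest, and the subsets overlapped. The log2 fold change was -2.29 with a 95% interval from -6.89 to 2.30 (edgeR adjusted p = 0.9999), and it was 3.42 without Lyve-1- replicate 1. *Wap*, whey acidic protein, had 0, 2 and 19 counts in the Lyve-1- replicates and 17, 0 and 0 counts in the Lyve-1+ replicates. *Wap* did not pass the filter on low counts, and the exact two-sided permutation test of its level gave p = 0.7, where the smallest p that 3 against 3 libraries allow is 0.1.

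*Krt18* encodes the type I keratin of luminal cells. Its level was 140.2, 9.24 and 51.6 CPM in Lyve-1- replicates 1, 2 and 3 (1669, 104 and 354 counts). In Lyve-1+ replicates 1, 2 and 3 it was 24.8, 39.0 and 19.2 CPM (325, 813 and 152 counts). The 2 highest libraries and the lowest one were Lyve-1-, so that the subsets overlapped. The means were 67.0 ± 66.8 and 27.6 ± 10.2 CPM (SD, n = 3 each), with a log2 fold change of -1.28 (SE 0.74, edgeR adjusted p = 0.856). Without Lyve-1- replicate 1 it was -0.13.

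*Krt8* encodes the type II partner that forms filaments with Krt18. It was at 59.7, 6.22 and 34.0 CPM in Lyve-1- replicates 1, 2 and 3 (711, 70 and 233 counts), and at 21.3, 11.3 and 7.94 CPM in the Lyve-1+ replicates (279, 236 and 63 counts). Its order over the Lyve-1- libraries was that of *Krt18*. The means of 33.3 ± 26.8 and 13.5 ± 6.93 CPM (SD, n = 3 each) gave a log2 fold change of -1.30 (SE 0.74, edgeR adjusted p = 0.837). Leaving out Lyve-1- replicate 1 gave -0.57. The proportion of the partners varied: of the counts of *Krt8* and *Krt18*, *Krt18* took from 53.8% in Lyve-1+ replicate 1 (95% exact binomial interval 49.7 to 57.8) to 77.5% in Lyve-1+ replicate 2 (74.9 to 80.0).

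The basal keratins were low. *Krt5*, the type II keratin of basal cells, had 26, 9 and 62 counts in Lyve-1- replicates 1, 2 and 3 (2.18, 0.800 and 9.04 CPM) and 13, 72 and 2 counts in the Lyve-1+ replicates (0.990, 3.45 and 0.252 CPM). *Krt14*, its type I partner, had 14, 2 and 80 counts (1.18, 0.178 and 11.7 CPM) in the Lyve-1- replicates and 41, 57 and 11 counts (3.12, 2.73 and 1.39 CPM) in the Lyve-1+ replicates. The highest level of both was in Lyve-1- replicate 3, the library with the most olfactory receptor genes detected. Their log2 fold changes were -1.34 (95% interval -6.11 to 3.42) for *Krt5* and -0.84 (95% interval -5.38 to 3.71) for *Krt14* (edgeR adjusted p = 0.9999 for both). Without Lyve-1- replicate 3 these values were 0.074 and 1.82.

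*Epcam* encodes a surface adhesion molecule of epithelial cells, which some antigen-presenting cells such as Langerhans cells of the skin are also known to carry. Its level was 25.0, 23.5 and 29.6 CPM in Lyve-1- replicates 1, 2 and 3 (298, 264 and 203 counts). In Lyve-1+ replicates 1, 2 and 3 it was 10.4, 11.4 and 3.15 CPM (136, 238 and 25 counts). Every Lyve-1+ library was below every Lyve-1- library, and the Lyve-1- libraries were close to each other. The means were 26.0 ± 3.19 and 8.30 ± 4.49 CPM (SD, n = 3 each), and the log2 fold change was -1.64 with a 95% interval from -3.19 to -0.092 (SE 0.73, edgeR unadjusted p = 0.0391, adjusted p = 0.588). The value stayed between -1.96 and -1.28 when each library was left out in turn. In bulk samples such as these, fewer cells of a type and less RNA per cell cannot be told apart.

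**Figure D1:**
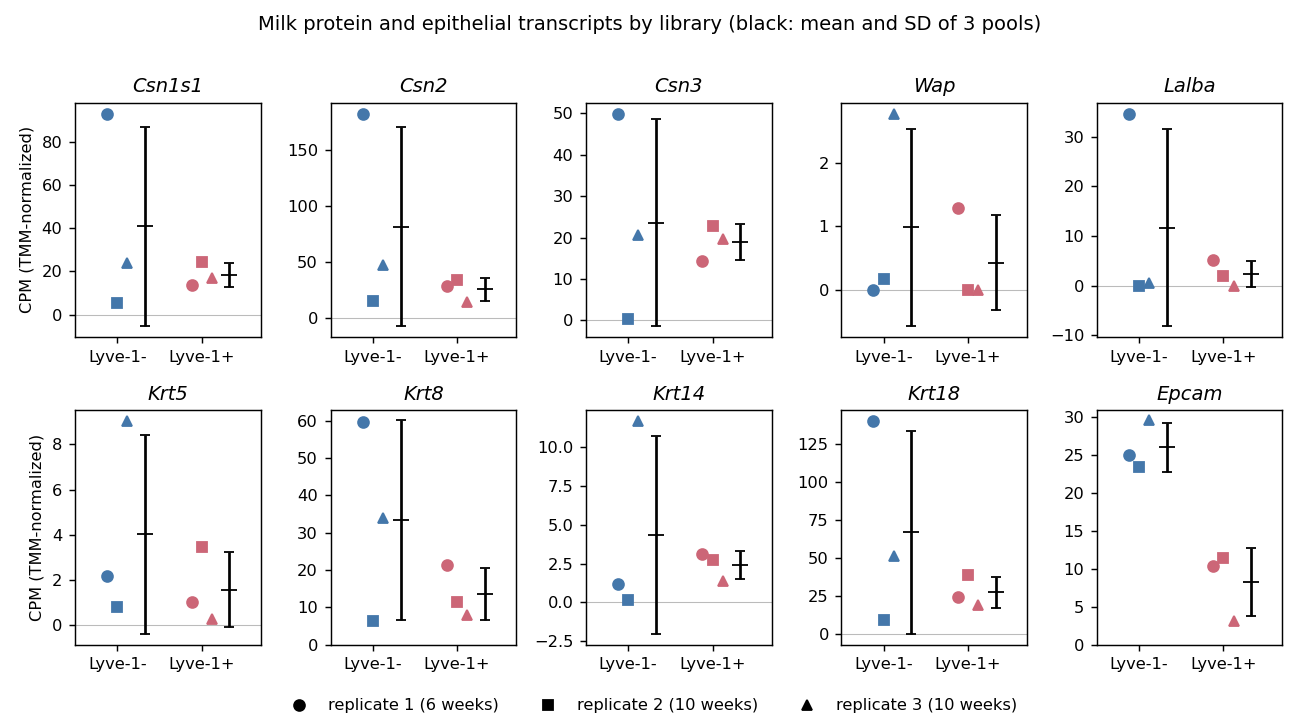
Level of each of the 10 genes in CPM (linear axes, 1 per gene) in the 3 Lyve-1- (blue) and 3 Lyve-1+ (red) libraries, with the mean and SD of each subset in black and the replicate number and age given by the symbol. Lyve-1- replicate 1 is the highest library for Csn1s1, Csn2, Csn3, Lalba, Krt8 and Krt18, Lyve-1- replicate 3 is the highest for Wap, Krt5, Krt14 and Epcam, and the subsets are separated for Epcam only.

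Across the group, 9 of the 10 genes passed the filter on low counts and were tested, and 0 were called as different between the subsets. Calls needed an adjusted p below 0.01 and a log2 fold change whose size lay between 1 and 10, which 0.112% of all 13348 genes tested met, and 0.00749% met with a lower level in Lyve-1+ macrophages. *Lyve1*, the marker of the sort, also fell short of these limits in this fit (log2 fold change 7.93, edgeR adjusted p = 0.0254). That 0 members were called therefore does not show equal levels. DESeq2 gave an adjusted p to 4 of the members (*Csn1s1*, *Csn2*, *Krt8* and *Krt18*) and called 0 of them. Without its independent filtering, an alternative added after the data were seen, it gave one to all 9 and called 0, with an adjusted p of 0.453 for *Epcam*. At an unadjusted p under 0.05 by edgeR there were 2, *Csn2* and *Epcam*, both lower in Lyve-1+ macrophages, while 7.69% of all genes tested had such a p in either direction and 3.5% in that direction. The log2 fold change was below 0 for all 9 genes tested, against 50.6% of all genes, and its median was -1.30, against -0.011 over all genes. With age as a covariate 7 of the 9 were below 0, and in the 10-week libraries alone 6 of the 8 tested there. The 9 values come from the same libraries and are not independent of each other. All libraries of 1 subset lay below all of the other, in that direction, for 1 of the 10 genes, and for 6.5% of all genes tested.

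**Figure D2:**
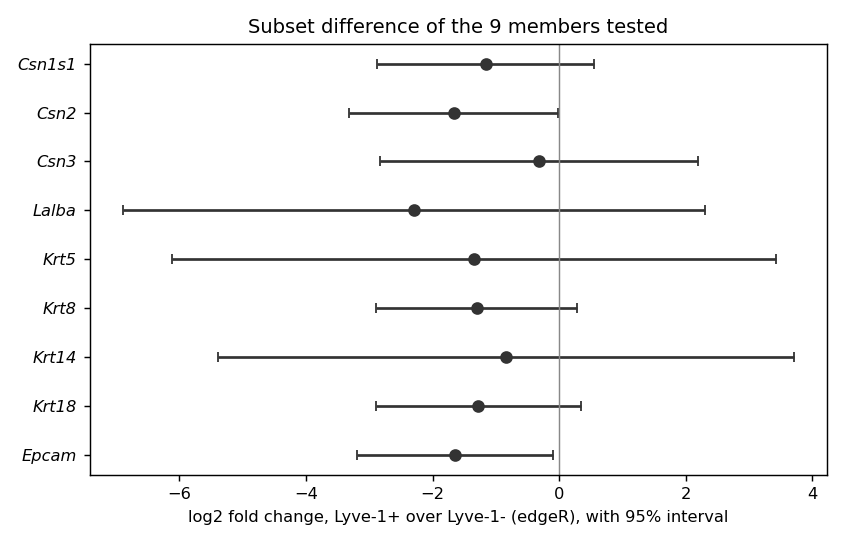
Log2 fold change, Lyve-1+ over Lyve-1-, of the 9 genes tested, as points with their 95% intervals from edgeR and a grey line at 0. All points lie below 0, and the intervals of 7 genes include 0, those of Csn2 and Epcam being the exceptions before adjustment over all genes tested.

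The direction rested in part on the design and on single libraries. With age as a covariate *Csn3* and *Lalba* were higher in the Lyve-1+ libraries, and so were *Csn1s1* and *Csn3* in the 10-week libraries alone. With Lyve-1- replicate 1 left out, *Csn1s1*, *Csn3* and *Lalba* were higher in the Lyve-1+ libraries, and with Lyve-1- replicate 3 left out, so were *Krt5* and *Krt14*. *Csn2*, *Krt8*, *Krt18* and *Epcam* had a log2 fold change below 0 with each of the 6 libraries left out. Under the 2 other scalings tried, DESeq2 size factors and total counts, all 9 values remained below 0.

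**Figure D3:**
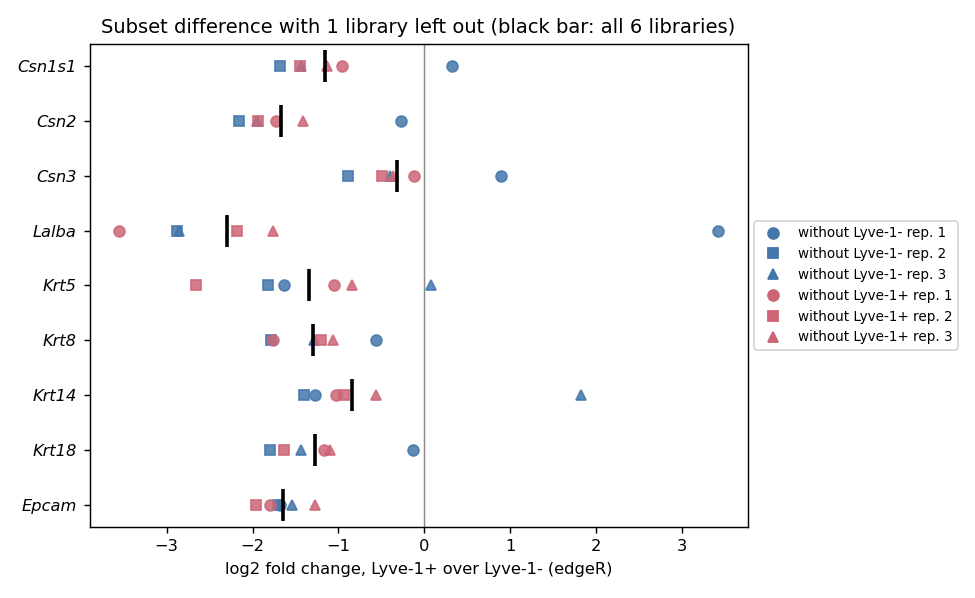
Log2 fold change, Lyve-1+ over Lyve-1-, of the 9 genes tested when 1 library is left out (symbols and colours give the library) and with all 6 libraries (black bars). Leaving out Lyve-1- replicate 1 moves Lalba to 3.42 and Csn3 to 0.89, leaving out Lyve-1- replicate 3 moves Krt14 to 1.82, and Epcam stays between -1.96 and -1.28.

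The summed level of the 5 milk protein genes was 360.2, 20.8 and 94.6 CPM in Lyve-1- replicates 1, 2 and 3, and 63.4, 82.9 and 50.6 CPM in Lyve-1+ replicates 1, 2 and 3. The sum of the keratins and *Epcam* was 228, 39.9 and 136 CPM in the Lyve-1- replicates and 60.5, 67.8 and 31.9 CPM in the Lyve-1+ replicates. The means were 159 ± 179 and 65.6 ± 16.2 CPM (SD, n = 3 each) for milk proteins and 135 ± 94.2 and 53.4 ± 19.0 CPM (SD, n = 3 each) for keratins with *Epcam*. For both sums the SD of the Lyve-1- libraries was larger than the difference between the means. Among the 10-week libraries alone, the mean milk sum was higher in the Lyve-1+ libraries by 9.92 CPM, whereas the sum of keratins and *Epcam* differed by -37.4 CPM.

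The 2 sums moved together over the libraries. Pearson's r of their log2 levels was 0.88 and Spearman's rho 0.94 over 6 libraries, and r was 0.94 without Lyve-1- replicates 1 and 2, the farthest from the median of the milk sum. Both sums come from the same libraries and share their depth. Among single genes the closest pairs were *Csn1s1* with *Krt18* (r = 0.97) and *Csn2* with *Krt18* (r = 0.95), and *Csn2* with *Krt8* reached 0.92. *Epcam* correlated less with the caseins (r = 0.19 with *Csn1s1*, 0.55 with *Csn2* and -0.19 with *Csn3*). These values describe 6 libraries and carry no test.

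The genes whose levels followed the milk sum most closely, of 13339 ranked, were *Zc3h15* (r = 0.99), *Fbxw9* (0.98), *Arpp19* (0.98), *Tagln2* (0.97) and *Mvb12a* (0.97). Without Lyve-1- replicates 1 and 2 these r were 0.94, 0.88, 0.87, 0.86 and 0.32, so that the likeness of *Mvb12a* rested on those libraries. Those closest to the sum of keratins and *Epcam* were *Polr3c* (r = 1.00), *Gdf3* (0.98), *Casz1* (0.98), *Rpl8* (0.98) and *Dcaf15* (0.98), and without Lyve-1- replicates 1 and 3 their r lay between 0.84 and 0.99. No milk protein or keratin was among them because members were left out of the ranking. Nothing is read from this order beyond the values over 6 libraries.

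The makeup of the epithelial trace differed between some libraries by more than intervals that take each count as independent. Within the counts of the 10 genes, milk proteins took 61.2% in Lyve-1- replicate 1 (95% exact binomial interval 60.0 to 62.3), 34.3% in Lyve-1- replicate 2 (30.7 to 38.0) and 41.1% in Lyve-1- replicate 3 (38.6 to 43.5). In Lyve-1+ replicates 1, 2 and 3 the shares were 51.2% (48.7 to 53.6), 55.0% (53.2 to 56.7) and 61.4% (57.5 to 65.1). The subsets overlapped. Amplified reads without molecular identifiers are not independent molecules, so the true counting error may be wider than these intervals.

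The caseins kept a common order in part. *Csn1s1* took between 21.5% and 33.1% of the milk protein counts in all 6 libraries. *Csn2* took the most in each library other than Lyve-1+ replicate 3, from 40.6% to 72.6%, and 28.1% in that library, where *Csn3* took 38.8%. The share of *Csn3* was 0.855% in Lyve-1- replicate 2, with a 95% exact interval of 0.104 to 3.05%, and 13.9% or more in every other library. *Lalba* took 9.63% and 8.29% in the 6-week libraries of Lyve-1- and Lyve-1+ macrophages, and at most 2.25% in any 10-week library.

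The luminal keratins outnumbered the basal ones everywhere. *Krt5* and *Krt14* together took 1.65% of the counts of the 4 keratins in Lyve-1- replicate 1 (95% exact interval 1.18 to 2.24), 5.95% in replicate 2 (3.01 to 10.4) and 19.5% in replicate 3 (16.7 to 22.5). In Lyve-1+ replicates 1, 2 and 3 they took 8.21% (6.23 to 10.6), 10.95% (9.22 to 12.9) and 5.70% (3.07 to 9.55). The range within Lyve-1- was wider than that within Lyve-1+ libraries. *Epcam* took 58.8% of the counts of keratins and *Epcam* in Lyve-1- replicate 2 (54.1 to 63.4), and between 9.88% and 21.8% in the other 5 libraries. Lyve-1- replicate 2 thus had an *Epcam* level like that of the other Lyve-1- libraries but the lowest *Csn1s1*, *Csn3*, *Krt8*, *Krt14* and *Krt18* of all 6.

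**Figure D4:**
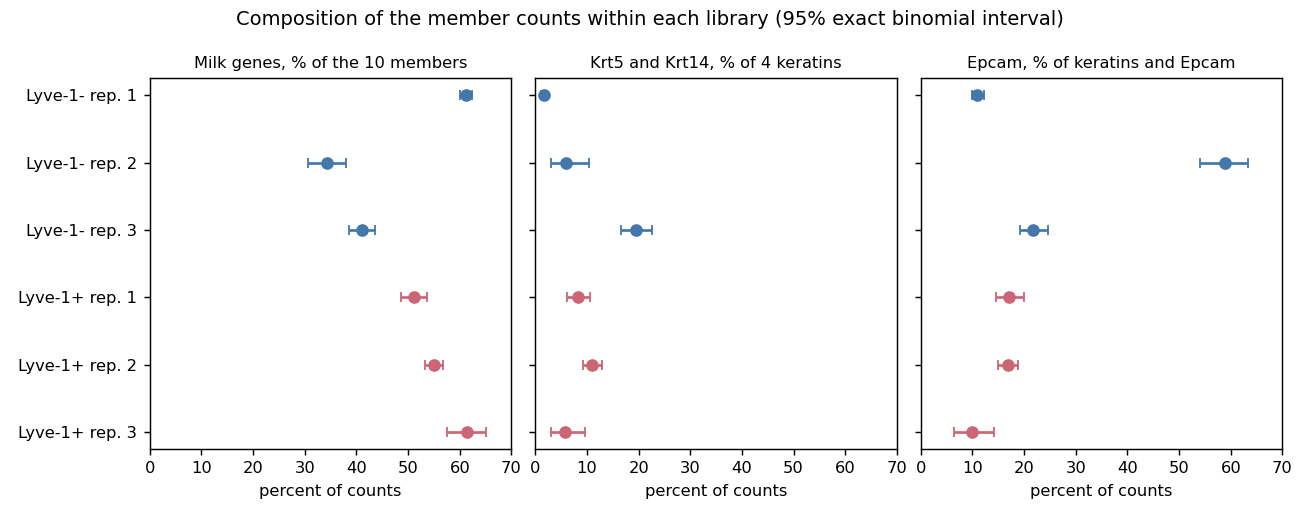
Share of the member counts within each library, in percent with 95% exact binomial intervals, for milk proteins of all 10 genes (left), Krt5 and Krt14 of the 4 keratins (middle) and Epcam of keratins and Epcam (right), with Lyve-1- libraries in blue and Lyve-1+ libraries in red. Lyve-1- replicate 2 stands out by its Epcam share of 58.8%, and Lyve-1- replicate 3 by its basal keratin share of 19.5%.

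The olfactory receptor counts were set beside the members as a measure of counts on genes not known to be used in these cells. The mean olfactory receptor density was 2.68 counts per kb in Lyve-1- replicate 3 and 0.0348 to 1.19 in the others. If spread evenly at that density, at most 6.87 counts would fall on any member in any library. The evenly spread counts were under 10% of those observed, except where a count was 0 and in the following cases. They were 69.0% of the 3 *Lalba* counts in Lyve-1- replicate 3 and 17.4% of the 13 *Krt5* counts in Lyve-1+ replicate 1. They were also 12.1% of the 2 *Csn3* counts in Lyve-1- replicate 2. Receptor counts were clumped, however: the 4160 of Lyve-1+ replicate 2 fell on 134 of the 1110 genes, and the 122 of Lyve-1- replicate 1 on 4. An even spread thus does not show how many such counts 1 gene could take. The low percentages cannot decide whether small member counts have that source. At the lowest densities, 0.0348 to 0.0945 counts per kb, at most 0.242 counts were due, so any detected member exceeded them. With the mean density of each library subtracted from all genes, 0 members were called and all 9 log2 fold changes were below 0. Without Lyve-1- replicate 3 and Lyve-1+ replicate 2, the libraries with the most olfactory receptor counts, *Krt14* had a log2 fold change of 1.72, and those of the other 8 genes remained below 0. Both of these alternatives were chosen after the data were seen.

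**Figure D5:**
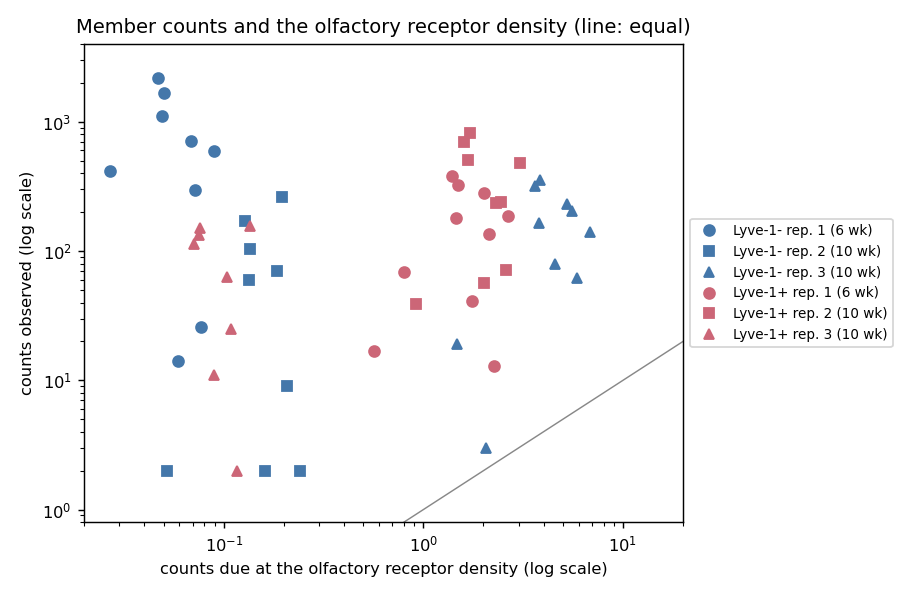
Counts observed for each member and library with at least 1 count (vertical log axis) against the counts that would fall on the gene at the library's olfactory receptor density (horizontal log axis), with a grey line where both are equal. All points lie above the line, and the nearest is Lalba in Lyve-1- replicate 3 with 3 counts. At the lowest densities at most 0.242 counts are due, so any point there lies above the line by construction.

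Age was compared as 10 weeks (4 libraries) against 6 weeks (2 libraries) with the subset as a second term. None of the 9 members tested was called by edgeR, nor any of the 7 to which DESeq2 gave an adjusted p. Over all 13348 genes edgeR called 0 (0%), with 444 (3.33%) at an unadjusted p under 0.05, and DESeq2 called 15. Of the 9 members tested, 7 had a lower level at 10 weeks, against 46.4% of all genes. *Lalba* differed by -5.47 on the log2 scale (SE 2.41, edgeR unadjusted p = 0.0352, adjusted p = 0.9999) and *Csn2* by -1.57 (SE 0.64, edgeR unadjusted p = 0.0291, adjusted p = 0.9999). These were the only 2 members at an unadjusted p under 0.05, and 1.27% of all genes had such a p with a lower level at 10 weeks. *Lalba* was higher in the 6-week libraries (34.7 and 5.26 CPM) than in any 10-week library (0 to 1.87 CPM, from 0 to 39 counts). The share of all genes that separate by age in this way was not counted. *Csn2* overlapped between the ages (182 and 28.9 CPM at 6 weeks, 14.2 to 46.8 CPM at 10 weeks).

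The subset difference was also compared between the ages. For *Csn1s1* the interaction, the log2 fold change at 10 weeks minus that at 6 weeks, was 3.27 (edgeR unadjusted p = 0.0316, adjusted p = 0.976). It was the only member with an unadjusted p under 0.05 for this term, against 4.59% of all genes tested. At 6 weeks each subset has 1 library, so that age and the particular pool cannot be told apart there.

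Other epithelial genes were read from the same fit. Of 14 further milk and secretory genes 10 were tested, 0 were called and 8 had a log2 fold change below 0, with a median of -0.88. DESeq2 called 0 genes of this and the following 2 epithelial lists, with an adjusted p for 7 of the 39 tested and, without independent filtering, for all 39. By edgeR 1 secretory gene (*Xdh*), 1 luminal gene (*Ehf*) and 0 basal genes had an unadjusted p under 0.05. Of all genes tested, 7.69% had such a p. The most abundant secretory gene was *Xdh*, xanthine dehydrogenase of the milk fat globule and of many other cells. It was at 318, 289 and 128 CPM in the Lyve-1- replicates and 439, 353 and 403 CPM in the Lyve-1+ replicates, higher in every Lyve-1+ library (log2 fold change 0.70, edgeR adjusted p = 0.628). The share of all genes with that order was not counted. *Csn1s2a*, another casein of the cluster, followed the other caseins in being highest in Lyve-1- replicate 1 (36.9 CPM), and it had 0 counts in Lyve-1+ replicate 3. *Btn1a1*, butyrophilin of the milk fat globule membrane, ranged from 0 to 36.9 CPM and was also highest in Lyve-1- replicate 1. *Csn1s2b* had 0 counts in all 6 libraries.

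Of 20 further luminal genes 19 were tested, 0 were called and 16 had a log2 fold change below 0, with a median of -1.22. *Ehf*, an epithelial transcription factor, was at 47.3, 248 and 244 CPM in the Lyve-1- replicates and 7.47, 50.9 and 58.3 CPM in the Lyve-1+ replicates. In both subsets the 10-week libraries were higher than the 6-week one (log2 fold change 2.61, edgeR adjusted p = 0.0354), and the subsets overlapped. Its order over the Lyve-1- libraries was unlike that of *Krt18*, which was highest in replicate 1 (140.2 CPM) and lowest in replicate 2 (9.24 CPM). Whether *Ehf* follows the same epithelial RNA was not tested. The log2 fold change of *Ehf*, Lyve-1+ over Lyve-1-, was -2.21 (SE 0.88, edgeR adjusted p = 0.592, DESeq2 adjusted p = 0.0167). With age as a covariate it was -2.33 (edgeR adjusted p = 0.00104), and *Ehf* was then called. *Areg*, an epidermal growth factor receptor ligand, ranged from 9.58 to 87.7 CPM and *Prlr*, the prolactin receptor, from 0 to 49.99 CPM. Their log2 fold changes were -0.26 for *Areg* and -0.12 for *Prlr*, each with an edgeR adjusted p of 0.9999.

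Of 12 further basal genes 10 were tested, 0 were called and 7 had a log2 fold change below 0, with a median of -0.34. The most abundant were *Myh11*, *Mylk* and *Acta2*, contractile genes that smooth muscle and myofibroblasts also use. *Myh11* had a log2 fold change of -0.051, *Mylk* of -1.66 and *Acta2* of -0.33 (edgeR adjusted p = 0.9999, 0.969 and 0.9999). Lyve-1- replicate 3 detected 13 of the 14 secretory, 20 of the 20 luminal and 12 of the 12 basal genes, the most of any library or as many as any, and Lyve-1- replicate 2 detected 8, 8 and 5.

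Markers of skin keratinocytes, which share *Krt5* and *Krt14* with basal cells, were set beside the keratins. Of 10 such genes 2 were tested and 0 were called. Their summed level was 2.77, 1.42 and 25.5 CPM in Lyve-1- replicates 1, 2 and 3 and 5.56, 8.14 and 5.29 CPM in the Lyve-1+ replicates. It was thus highest in the library with the highest *Krt5* and *Krt14*. The same library, Lyve-1- replicate 3, also had the most olfactory receptor genes detected, 651 of 1110. Between 1 and 9 of the 10 keratinocyte genes were detected per library, led by *Flg2*, *Calml3* and *Dsg1a*. The part of keratinocyte RNA in the basal keratin level was not tested.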

How the data were processed

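Bulk RNA-seq had been performed on 6 libraries, 3 per subset. The authors aligned reads to mm10 with HISAT2 2.0.2 and summarized them with featureCounts 1.5.0 (versions from the submitters' processing notes). The deposited table holds raw counts by gene symbol, which the authors had not normalized. A further 6-week library that the authors removed was not analysed here.

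From these counts, edgeR 4.0.16 (R 4.3.3) with filterByExpr, TMM scaling and the robust quasi-likelihood F test compared the subsets over 13348 genes, with Benjamini-Hochberg adjustment. The fit was also run on simulated data, with recovery of set changes required only at a dispersion below that of these data. That run does not show how many changes the fit recovers at the spread seen here. The call limits were those the study gave for its heat map, with its fold-change limits read here as log2 values. DESeq2, which the study used, was an alternative (version 1.42.0 here). The common biological coefficient of variation was 0.931, and single libraries held 6478007 to 21406839 counts. p-values measure the spread between pools only. GENCODE M21 held 22749 of the symbols as written and 916 more under a RefSeq synonym, and 396 stayed unmatched. Exonic length was the union of coding basic transcripts. Intervals of shares are Clopper-Pearson. Likeness was Pearson's r of log2 CPM with a prior count of 2.

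Members and gene lists were chosen with earlier results of these data known. All 10 members are named, along with the 3 most abundant genes of each other list, any list gene called, and the 5 genes most like each sum. The result of 1 list is not reported here. *Csn1s2b*, *Csf1r* and *Gm44323*, *Gm36026* and *Krt8-ps* are named beside this rule. Alternatives were other scalings and filters, DESeq2, a replicate block, an age term, a fit of the 10-week libraries by themselves, genes without ribosomal RNA and mitochondrial ones, other call limits, and each library left out.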

Additional observations from a re-analysis of the deposited data

How the results depend on the processing

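The number of members called was 0 under each alternative run, for subset and for age, among those that could be called: 5 were tested with at least 10 counts in every library, and DESeq2 gave an adjusted p to 4 for subset and 7 for age. The lowest adjusted p of a member was 0.0219, for *Csn2* without a filter on low counts. The 15 genes called between subsets became 188 without a filter, 32 with at least 10 counts in every library, 159 with DESeq2 (136 without independent filtering), 58 with age as a covariate, 84 at an adjusted p under 0.05 with no fold limit, and 0 without the 2 libraries with the most olfactory receptor counts. With 1 library left out they ranged from 1 (without Lyve-1- replicate 3) to 81 (without Lyve-1+ replicate 2). The causes were not tested. The 0 genes called for age became 12 without a filter, 15 with DESeq2 (14 without independent filtering) and 3 at the wider limit, and ranged from 0 to 20 with 1 library left out.

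Of the member values under the alternatives, 145 kept their direction and 12 reversed. Reversed values (log2) were *Csn3* at 0.16 and *Lalba* at 0.66 with age as a covariate, *Csn1s1* at 0.51 and *Csn3* at 1.07 in the 10-week libraries alone, and *Krt14* at 1.72 without the 2 olfactory-rich libraries. With 1 library left out, the ranges were -1.68 to 0.32 for *Csn1s1*, -0.89 to 0.89 for *Csn3*, -3.55 to 3.42 for *Lalba*, -2.66 to 0.074 for *Krt5* and -1.40 to 1.82 for *Krt14*. The milk sum difference was -92.9 CPM, 9.92 CPM in the 10-week libraries alone, and -161 to 8.05 CPM with 1 library left out. Of the other epithelial genes, 1 was called with age as a covariate.

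Same-numbered libraries shared an age, but their deviations from the subset means did not go together (correlations of -0.047, -0.0021 and -0.15), so the numbers were not taken to pair them. These correlations cannot exclude that same-numbered libraries came from the same pool of mice, which the labels do not state. The replicate block also carries age. With it 140 genes were called, 1 other epithelial gene (*Ehf*) was called, and *Csn3* (0.69) and *Krt14* (0.97) reversed.

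Low counts limit *Csn3*, *Wap*, *Lalba*, *Krt5* and *Krt14*, which had 3 or fewer counts in at least 1 library. The library with the fewest counts in all, Lyve-1- replicate 3 (6478007), had at least 1 count of all 10 members. The cause of the low counts was not tested.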

Other observations

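Genes known as markers of other cell types had a different order of libraries. The CD45+CD11b+F4/80+ gate would remove hepatocytes, fibroblasts and T cells, and the source of these counts was not tested. Hepatocyte genes, led by *Alb*, *Ttr* and *Apoa1*, summed to 735, 783 and 80.6 CPM in Lyve-1- replicates 1, 2 and 3 and to 97.9, 29.9 and 1408 CPM in the Lyve-1+ replicates. T cell genes, led by *Cd3g*, *Cd3e* and *Lck*, summed to 70.7 to 139 CPM in Lyve-1- and 19.6 to 62.6 CPM in Lyve-1+ libraries, without overlap. Fibroblast genes, led by *Dcn*, *Col6a1* and *Col6a2*, were the other way round, at 286 to 341 and 498 to 1440 CPM, and so were neutrophil genes, led by *S100a9*, *S100a8* and *Mpo*, at 9.66 to 25.8 and 28.6 to 219 CPM. In these lists 0 genes were called, and *Cd3e*, *Dcn* and *Mpo* each overlapped. Of all single genes tested, 6.5% had every Lyve-1+ library below every Lyve-1- library. The share in the other direction was not counted, nor was any share for sums of genes. The separations of these sums are therefore given as values only. The further luminal genes also separated in sum (292 to 444 CPM in Lyve-1-, 142 to 220 CPM in Lyve-1+), while the further secretory and basal sums overlapped. *Ehf* alone gave 47.3, 248 and 244 CPM of that luminal sum in Lyve-1- and 7.47, 50.9 and 58.3 CPM in Lyve-1+ replicates 1, 2 and 3. Singly, 1 of the 19 luminal genes tested separated as lower in Lyve-1+ and 1 as higher. Whether the luminal sum separates without *Ehf* was not tested.

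The sums overlapped between the subsets for genes of adipocytes (*Car3*, *Plin4* and *Cfd* leading, 21.9 to 27.4 CPM in Lyve-1- and 21.5 to 49.7 CPM in Lyve-1+), lymphatic endothelium (*Pdpn*, *Mmrn1* and *Reln*, 14.6 to 60.2 and 17.1 to 42.7 CPM) and blood endothelium (*Pecam1*, *Cdh5* and *Vwf*, 77.4 to 166 and 63.1 to 278 CPM). The genes of the sort and of macrophages, led by *Ptprc*, *Csf1r* and *Itgam*, summed to 3872 to 5156 CPM in Lyve-1- and 4660.2 to 5703 CPM in Lyve-1+ libraries without *Lyve1*, the marker of the gate, and overlapped.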
